A study of Mus musculus with 2 samples.

Results

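The keratin and cornified envelope gene clusters were described here as 3 windows of the mouse genome, in mm9 coordinates. The type I keratin window was positions 99200001 to 100100000 of chromosome 11. The type II keratin window was positions 101260001 to 101950000 of chromosome 15, and the epidermal differentiation window was positions 92300001 to 93600000 of chromosome 3. The windows were chosen by position, as clusters of skin genes taken to be silent in brain. No RNA was measured in this series, so that silence was not checked, and no marker of a cell type could be. The windows held 31362 listed cytosines, of 27435342 listed in all for the library used. Sites of more than 100 reads were set aside, and none of those lay in a window.

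The DNA came from dentate gyrus, a region of the hippocampus rich in granule neurons, dissected from both sides of adult male C57Black6 mice of 8 to 10 weeks. There was 1 group, with no treatment or mutant, of 2 libraries that the series calls biological replicates. Whole-genome bisulfite sequencing was carried out, in which unmethylated cytosine is read as thymine and methylated cytosine as cytosine. Levels are averages over all cell types of the tissue, and bisulfite reads do not separate methylcytosine from hydroxymethylcytosine. All results are of replicate 2 unless stated, since replicate 1 listed 172020 cytosines in all, with 92 CHG and CHH sites and 5 CpG sites in the windows. Comparisons below are therefore between stretches of DNA within 1 library, with no replicate of the library behind them.

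Keratins build the intermediate filaments of epithelial cells. A filament pairs an acidic type I keratin with a basic type II keratin, as KRT14 with KRT5 in basal epidermis, KRT10 with KRT1 above it, and KRT18 with KRT8 in simple epithelia. Most type I and type II genes lie in separate clusters, and the type I cluster also holds genes for keratin-associated proteins of hair. The type I gene Krt18 is an exception, on chromosome 15 with the type II genes. The epidermal differentiation complex encodes proteins of the cornified envelope, the hard shell of dead surface cells, among them involucrin, loricrin, filaggrin, trichohyalin and the small proline-rich and late cornified envelope families. In mammals DNA methylation is mostly at CpG, and neurons also carry it at CHG and CHH cytosines, where H is A, C or T.

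Promoters of the cluster genes had a lower median number of CpG dinucleotides than protein-coding promoters as a whole. In RefSeq (GRCm38.p6), promoters reaching from 250 bases before to 50 bases after a gene start were found by symbol for 20 of 27 keratin genes of chromosome 11, 21 of 23 keratin-associated protein genes, 16 of 26 keratin genes of chromosome 15 and 42 of 44 cornified envelope and filaggrin-type genes of chromosome 3. The median number of CpG was 5, 2, 6 and 1 in these 4 lists, against 13 over 21263 protein-coding promoters. At most 3 CpG were held by 38.1%, 81.0%, 25% and 95.2% of the listed promoters and by 23.9% of all promoters. In this the keratins of chromosome 15, at 25%, were near all promoters. At least 15 CpG were found in 12.5% of the chromosome 15 keratin promoters (2, those of Krt7 and Krt18), in none of the other lists and in 46.8% of all promoters. The letters TATAAA, on either strand, were in 61.9%, 95.2%, 37.5% and 45.2% of the listed promoters and in 12.6% of all. Positions of that build were not used with the mm9 read counts, so no promoter was given a methylation level, which listed genes lie inside the windows was not determined, and the lists may reach beyond them.

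The 250 bases before the start of genes picked by name are shown as examples of CpG content, with every CpG in capitals, 5′ to 3′ along the strand of the gene. No keratin-associated protein gene is among them. Krt10 (chromosome 11, minus strand) and Krt5 (chromosome 15, minus strand) are keratins of stratified epidermis, Krt18 (chromosome 15, plus strand) is the simple-epithelial keratin with 12 CpG in this stretch, and Flg (chromosome 3, plus strand) encodes filaggrin.
Krt10: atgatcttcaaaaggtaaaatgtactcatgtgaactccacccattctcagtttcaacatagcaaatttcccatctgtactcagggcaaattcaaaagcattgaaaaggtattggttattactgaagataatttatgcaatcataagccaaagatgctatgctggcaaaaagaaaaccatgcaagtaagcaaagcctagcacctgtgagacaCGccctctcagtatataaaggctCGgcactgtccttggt
Krt5: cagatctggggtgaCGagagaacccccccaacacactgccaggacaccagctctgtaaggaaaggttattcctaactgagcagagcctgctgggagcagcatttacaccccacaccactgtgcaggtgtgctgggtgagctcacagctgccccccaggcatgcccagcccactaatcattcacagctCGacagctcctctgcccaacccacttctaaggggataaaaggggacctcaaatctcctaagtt
Krt18: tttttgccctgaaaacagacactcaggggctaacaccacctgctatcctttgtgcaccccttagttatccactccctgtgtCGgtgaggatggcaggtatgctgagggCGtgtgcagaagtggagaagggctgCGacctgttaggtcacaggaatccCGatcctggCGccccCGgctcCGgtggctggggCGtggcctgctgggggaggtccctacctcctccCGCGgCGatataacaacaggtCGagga
Flg: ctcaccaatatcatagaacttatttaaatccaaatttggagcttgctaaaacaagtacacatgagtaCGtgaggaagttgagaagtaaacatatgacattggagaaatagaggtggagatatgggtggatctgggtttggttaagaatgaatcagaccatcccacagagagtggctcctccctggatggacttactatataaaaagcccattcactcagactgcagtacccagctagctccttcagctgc
The stretches of Krt10 and Krt5 hold 2 CpG each, and that of Flg holds 1.

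Most CpG reads in the 3 windows were methylated. The CpG level, methylated reads over all reads, was 79.7% in the type I keratin window (95% exact binomial interval 79.2% to 80.2%, 1133 sites, 26686 reads). It was 78.5% in the type II window (77.9% to 79.2%, 651 sites) and 78.4% in the epidermal differentiation window (77.95% to 78.9%, 1219 sites). The level over all autosomal sites was 79.0%. Intervals here and below are exact binomial ones for counting error alone: reads of 1 PCR-amplified molecule could not be recognised. No pair of windows passed the test for CpG: the type I window minus the type II window was 1.19 points ± 1.15 (SE, adjusted p = 0.33 by the quasi-binomial model explained next), the type I minus the epidermal differentiation window 1.30 ± 0.97 (adjusted p = 0.23), and the type II minus the epidermal differentiation window 0.10 ± 1.19 (adjusted p = 0.93).

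CpG methylation was higher within the keratin windows than around them. Each window was set against the 1 Mb on each side with a quasi-binomial logistic model over sites, in which the spread between sites sets the error. P-values were adjusted by Benjamini-Hochberg over all autosomal tiles of the same length, each tested against its own 1 Mb flanks. Neighbouring sites share cells and reads, which the model does not take up, so the comparisons with flanks are set beside the share of tiles called. The tests between windows and the Fisher tests have no such background, and their p-values are too small by an amount not measured here. Whether the flanks hold genes of the same clusters was not determined, for want of an mm9 annotation. In the type I keratin window the CpG level was 79.7%, against 71.2% in its flanks, a difference of 8.50 points ± 1.002 (SE, quasi-binomial adjusted p = 3.96e-14). The left and right flanks were at 72.7% and 69.7%, both below the window. In the type II keratin window the level was 78.5%, against 67.6% in its flanks, a difference of 10.9 points ± 1.30 (SE, quasi-binomial adjusted p = 1.06e-12). Its left and right flanks were at 73.9% and 59.9%, and the difference was 4.60 points against the left flank alone, 18.6 points against the right flank alone and 4.52 points against 500 kb flanks, each passing the test. In the epidermal differentiation window the level was 78.4%, against 79.4% in its flanks, a difference of -1.02 points ± 0.90 that did not pass the test (95% interval -2.79 to 0.75, quasi-binomial adjusted p = 0.35). Its left and right flanks were at 77.5% and 81.9%, and against the right flank alone the window was lower, with a difference of -3.52 points (quasi-binomial adjusted p = 0.0062).

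With sites of at least 30 reads only, which are fewer, the differences were 10.9 points (type I, quasi-binomial adjusted p = 0.13) and 12.4 points (type II, 0.20) and neither passed. Many stretches of the genome pass the test at all sites. Of autosomal tiles of the type I window's length, 22.7% were called higher than their flanks in CpG and 21% lower. The shares were 21.1% and 19.9% for tiles of the type II window's length, and 24.7% and 23.2% for those of the epidermal differentiation window's length. The size of the keratin differences was less common. The difference was larger, in either direction, than that of 98.5% of the tiles for the type I window (2608 tested) and of 99.6% of the tiles (3410 tested) for the type II window. For the epidermal differentiation window it was larger than that of 30.6% of tiles. The windows' own levels were ordinary: 52.5%, 39.5% and 39.2% of tiles of the same length had a lower CpG level than the type I, type II and epidermal differentiation window. One 100 kb stretch of the type II window's right flank, 102750001 to 102850000, had a CpG level of 12.4% over 151 sites. Without that stretch, an alternative chosen after seeing the data, the type II difference was 6.40 points ± 1.23 (quasi-binomial adjusted p = 7.86e-06), larger than that of 94.9% of tiles.

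**Figure D1:**
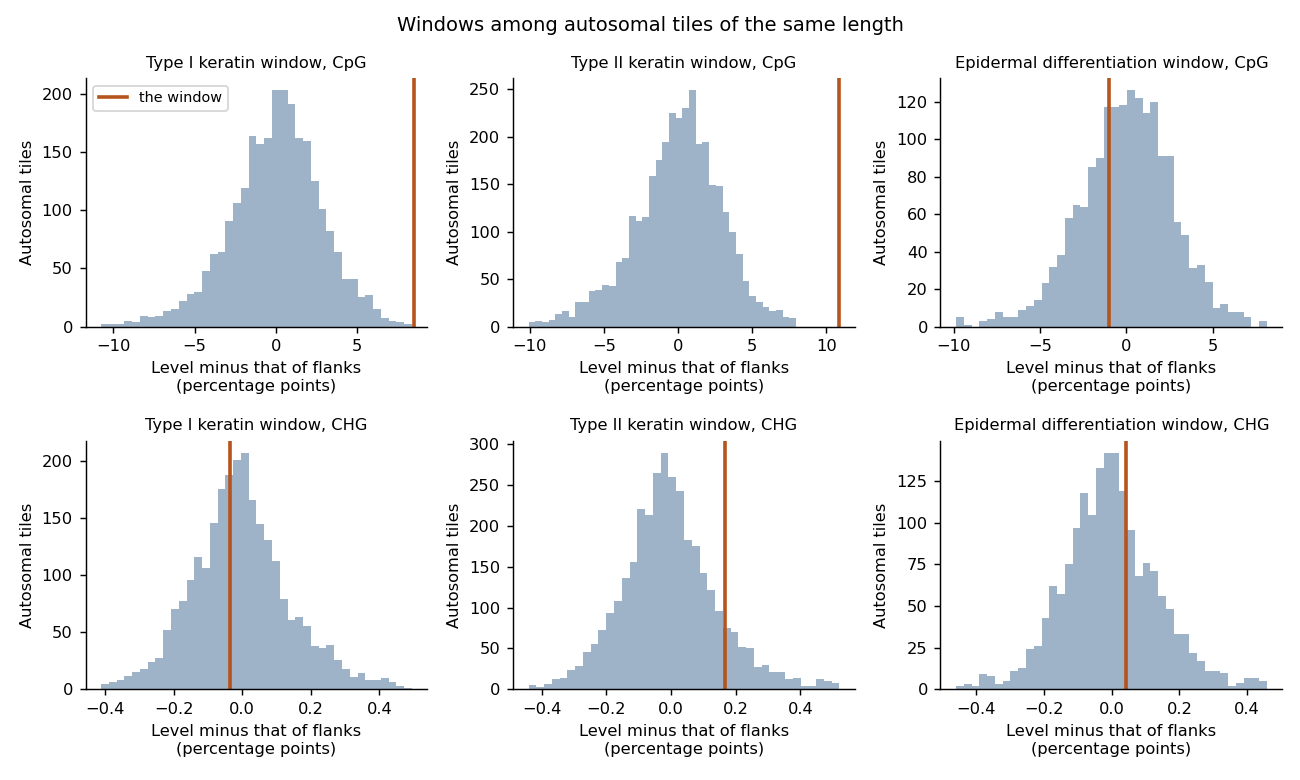
Histograms of the level of autosomal tiles minus that of their 1 Mb flanks, in percentage points (horizontal), against the number of tiles (vertical), for CpG (top) and CHG (bottom) and tiles of each window's length; the most extreme 0.5% of tiles at each end are not drawn. The orange line is the window itself, which lies at 8.50, 10.9 and -1.02 points for CpG and at -0.04, 0.17 and 0.04 points for CHG.

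In 100 kb steps, the CpG level was above that of the flanks through most of both keratin windows, whose own levels were ordinary. All steps of a window were set against the same flanks, so their calls are not independent of each other or of the window's own difference. The background takes in steps of all tiles, whatever the difference between tile and flanks. In the type I window 7 of 9 steps were called higher than the window's flanks and 0 lower, against 10.5% of steps of autosomal tiles called higher and 12.2% lower. The levels in the 9 steps ranged from 73.9% to 85.0%, with a median of 81.4%. The first and the last step, at 73.9% each, were the 2 that were not called, and the highest was step 5, in the middle of the window. In the type II window 5 of 7 steps were called higher and 0 lower, against a background of 10.2% higher and 12% lower, with levels from 74.0% to 81.2%. Here too the first step (76.0%) and the last (74.0%) were not called. Of the 20 flank steps of 100 kb of each window, 19 had a lower CpG level than the type I window and 19 than the type II window, against 8 of 20 for the epidermal differentiation window. The number of CpG steps called in the 3 windows, 15 of 29 in either direction, was 7 against 500 kb flanks and 9 against the left flanks alone.

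**Figure D2:**
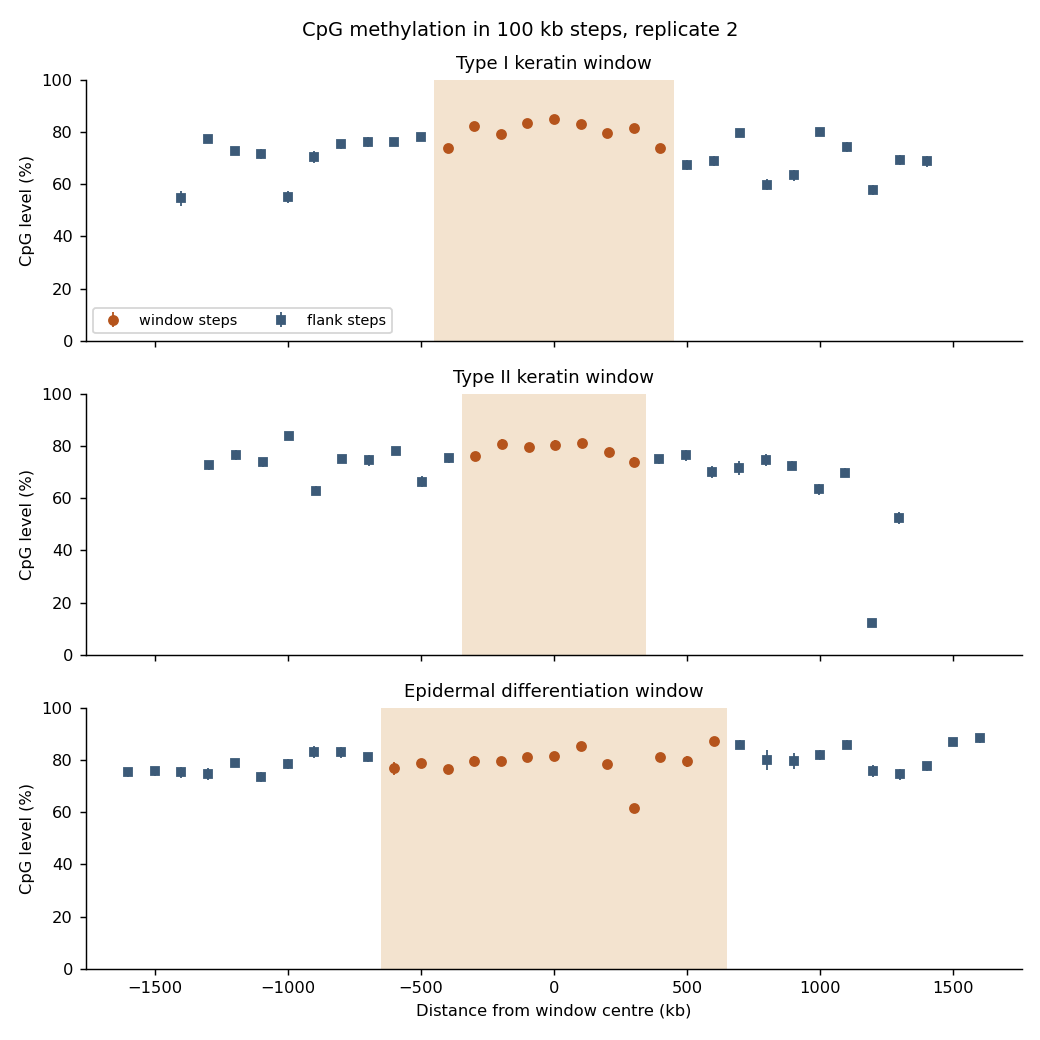
CpG level in percent (vertical) by distance from the window centre in kb (horizontal) in 100 kb steps of the 3 windows (orange circles, shaded) and their 1 Mb flanks (blue squares); bars are 95% exact binomial intervals. Type I and type II window steps lie between 73.9% and 85.0%, while 1 step of the epidermal differentiation window lies at 61.6% and 1 flank step of the type II window at 12.4%.

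The difference at the keratin windows went with fewer unmethylated CpG sites than in their flanks. Sites methylated in at most 20% of reads made up 3.35% of CpG sites in the type I window (38 of 1133), against 12.3% in its flanks (264 of 2142; Fisher's exact test, adjusted p = 1.17e-18 over 6 tests). Type II low sites made up 5.22% (34 of 651), against 15.7% in its flanks (317 of 2014; Fisher's exact test, adjusted p = 3.16e-13). The share over all autosomal sites was 5.40%. The type II flanks include 102750001 to 102850000, at a CpG level of 12.4% over 151 sites, and the class tests were not repeated without it. Sites methylated in at least 80% of reads were more common in both keratin windows than in their flanks, at 66.2% against 57.4% in the type I flanks and 63.0% against 53.0% in the type II flanks (Fisher's exact test, adjusted p = 2.05e-06 and 1.28e-05). Over all autosomal sites the share of such sites was 66.6%, so neither keratin window was above it and both sets of flanks were below it. At 30 reads or more the type I high class (12.6 points) and the type II low and high classes (-9.30 and 22.3 points) did not pass. With sites of more than 20% only, an alternative chosen after seeing the data, the type I window minus its flanks was 1.499 points and the type II window minus its flanks 3.11 points. That filter drops sites by the level compared, and more of them in the flanks, so a smaller gap follows from its construction and these values are a description only.

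**Figure D3:**
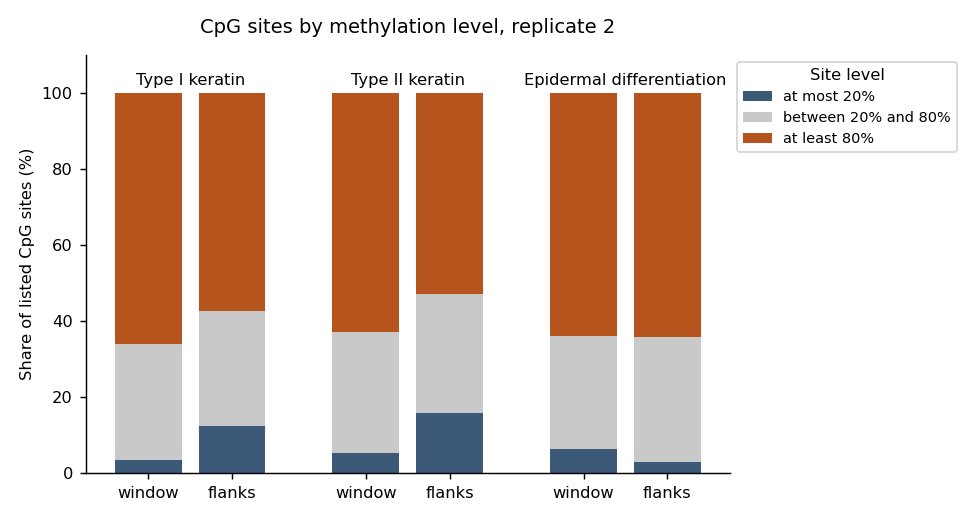
Share of listed CpG sites in percent (vertical) methylated in at most 20%, between 20% and 80%, and at least 80% of reads, in each window and its flanks. The low class takes 3.35% and 5.22% in the type I and type II windows, against 12.3% and 15.7% in their flanks, while it takes 6.23% in the epidermal differentiation window, against 2.97% in its flanks.

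Runs of unmethylated sites were fewer per Mb in the keratin windows than in their flanks, with the type II window near the autosomal rate. A low stretch was taken as at least 4 consecutive listed CpG sites, each at most 20% methylated, with gaps of at most 1 kb. Only listed sites enter, so the number of stretches depends also on which sites reached the minimum of reads. The type I window held 1 such stretch, at 99278265 to 99278360 with 5 sites at 7.03%, while its left and right flanks held 6 and 12. The type II window held 2, near its left and right ends: 101269258 to 101269281 with 5 sites at 4.76%, and 101937462 to 101937509 with 5 sites at 8.04%. Its flanks held 5 and 18, and most of the 18 lay within 102750001 to 102850000 of its right flank. The epidermal differentiation window held 2 and its flanks 1 each. The type I, type II and epidermal differentiation windows thus held 1.11, 2.90 and 1.54 such stretches per Mb, against 3.22 per Mb over the autosomes (7784 in all).

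The epidermal differentiation window held 1 long unmethylated stretch. From 93247237 to 93251763, a span of 4.53 kb, all 38 listed CpG sites were low, and 16 of 801 reads were methylated (1.998%, 1.15% to 3.22%). Of these sites 30 had no methylated read, and the highest was at 18.2%. The stretch held 50% of the low CpG sites of the window (38 of 76). Only 2 of the 7784 autosomal stretches, this one included, had 38 listed sites or more, and the median was 5. Sites below 20 reads are not listed, so this count depends on depth and does not rank stretches by the length of unmethylated DNA. The nearest listed CpG sites outside were 1956 bases to the left, at 100% of 24 reads, and 4978 bases to the right, at 69.6% of 23 reads. In the 30 kb on the left and right the CpG level was 81.4% and 85.7%. CHG methylation inside was 0.18% (2 of 1100 reads at 52 sites, 0.022% to 0.66%), and no CHH site was listed there. CHG was 1.06% in the 30 kb to the left and 0.52% in the 30 kb to the right. No gene was assigned to the stretch, since no mm9 annotation was used here. Depth inside was 20 to 25 reads per CpG site, near the minimum of 20.

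**Figure D4:**
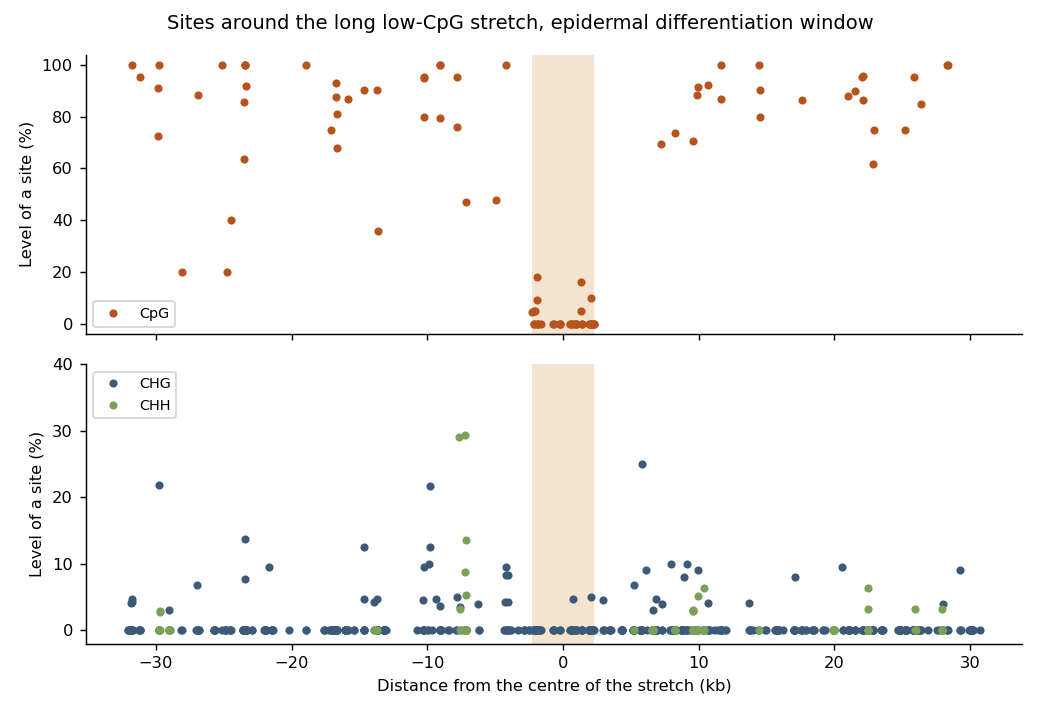
Level of each listed CpG site (top) and each CHG and CHH site (bottom), in percent of reads (vertical), by distance in kb from the centre of the 4.53 kb stretch (horizontal, stretch shaded). The 38 CpG sites in the stretch lie between 0% and 18.2%, and the sites within 30 kb outside lie between 20% and 100%.

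That stretch set the low point of the CpG profile. Step 10 of the epidermal differentiation window (93200001 to 93300000) was at 61.6%, against 79.4% in the flanks, a difference of -17.8 points ± 2.47 (quasi-binomial adjusted p = 9.76e-14). It was the only one of 29 steps of the 3 windows called lower in CpG, while 12.8% of steps of tiles of that window's length were. Without the sites of the stretch the step was at 81.5%, and was not called (quasi-binomial adjusted p = 0.54). The window minus its flanks then turned to 1.14 points ± 0.85, which did not pass either (quasi-binomial adjusted p = 0.26). Leaving out the stretch was chosen after seeing the data. Step 8 (93000001 to 93100000) at 85.3% and step 13 (93500001 to 93600000) at 87.2% were called higher, against a background of 11% of steps. Step 13 passed narrowly (quasi-binomial adjusted p = 0.0499). Low sites were more common in this window than in its flanks, at 6.23% against 2.97% (Fisher's exact test, adjusted p = 7.87e-05), and the share of high sites was 64.1% against 64.2% (adjusted p = 0.97). With sites of at least 30 reads both turned, with differences in share of -2.29 and 7.12 points that did not pass. Of the 76 low sites of the window 38 lay in the long stretch, and Fisher's exact test counts each as a separate site. Without the stretch 38 of 1181 sites of the window were low, against 43 of 1446 in the flanks, so the excess of low sites lay largely in that stretch. Fisher's exact test was not repeated on these counts.

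CHG methylation in the windows lay above the mitochondrial level, taken here as the measure of failed conversion. CHG was 0.75% in the type I window (0.71% to 0.79%, 6789 sites, 161377 reads), 0.87% in the type II window (0.81% to 0.93%, 3950 sites) and 0.60% in the epidermal differentiation window (0.57% to 0.63%, 11046 sites). The autosomal level was 0.78%, and mitochondrial CHG and CHH sites together were at 0.368%. The 3 windows were thus at 2.04, 2.37 and 1.63 times the mitochondrial level. The series also records lambda DNA for these libraries, which was not used here. Whether nuclear DNA fails conversion at the mitochondrial rate was not tested. CHH was 0.88% (0.81% to 0.95%, 2016 sites), 1.13% (0.996% to 1.27%, 726 sites) and 0.67% (0.63% to 0.72%, 3832 sites), against 0.89% over the autosomes. CHH sites had at least 30 reads and CHG sites at least 20, so the contexts are not compared with each other.

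In CHG and CHH the epidermal differentiation window was lower than each keratin window, while the keratin windows did not pass against each other. Pairs of other stretches of the genome were not tested, so how common such differences are is not known. The type II keratin window was the highest and the epidermal differentiation window the lowest in both contexts. The type II window exceeded the epidermal differentiation window by 0.27 points ± 0.053 for CHG (quasi-binomial adjusted p = 2.72e-07 over 9 tests, 1.45-fold) and by 0.46 points ± 0.13 for CHH (adjusted p = 0.00021). The type I window exceeded it by 0.15 points ± 0.041 for CHG (quasi-binomial adjusted p = 0.00047) and by 0.20 points ± 0.077 for CHH (adjusted p = 0.013). At 30 reads or more the type I difference in CHG was 0.0068 points and did not pass. The type I and type II windows did not pass the test for CHG (-0.12 points ± 0.063, quasi-binomial adjusted p = 0.086) or CHH (-0.25 points ± 0.14, adjusted p = 0.097). Among tiles of the same length, 46.6%, 74.8% and 10.6% had a lower CHG level than the type I, type II and epidermal differentiation windows, and 48.3%, 81.2% and 11.7% a lower CHH level.

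Against their flanks the CpH differences, those of CHG and CHH, were small. CHG in the type II window was 0.87%, against 0.70% in its flanks, a difference of 0.17 points ± 0.058 (quasi-binomial adjusted p = 0.0095). It was higher than both flanks, at 0.71% and 0.70%. This difference was larger than that of 75.5% of tiles, and 19.5% of tiles were called higher and 22.4% lower in CHG, so such a call is common. It did not pass without step 1 of the window (0.11 points, quasi-binomial adjusted p = 0.12). CHH there was 1.13%, against 0.82% in the flanks, and did not pass (quasi-binomial adjusted p = 0.084), where 13.9% of tiles were called higher and 12.4% lower. In the type I window CHG was 0.75%, against 0.78% in the flanks (quasi-binomial adjusted p = 0.56), and CHH 0.88%, against 1.06% (adjusted p = 0.21). Of tiles of that length 20.7% were called higher and 24.7% lower in CHG, and 15.8% and 15.1% in CHH. In the epidermal differentiation window CHG was 0.60%, against 0.56% in the flanks (quasi-binomial adjusted p = 0.26), and CHH 0.67%, against 0.58% (adjusted p = 0.16). Of tiles of that length 24.4% were called higher and 27.7% lower in CHG, and 18.5% and 19.7% in CHH. The 95% intervals of these differences reached from -0.13 to 0.055 points (CHG) and from -0.42 to 0.041 points (CHH) for the type I window, and from -0.019 to 0.10 points (CHG) and from -0.011 to 0.19 points (CHH) for the epidermal differentiation window.

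The flanks on either side were unlike each other, so the direction could depend on the side. CHG in the left and right flanks was 0.65% and 0.90% for the type I window, which lay between them at 0.75%, and 0.46% and 0.72% for the epidermal differentiation window, between them at 0.60%. Set against the left flank alone, the epidermal differentiation window was higher by 0.14 points (quasi-binomial adjusted p = 9.48e-05), and set against the right flank alone the difference was -0.12 points (adjusted p = 0.013). The type I window against its right flank alone was lower, with differences of -0.15 points in CHG (quasi-binomial adjusted p = 0.019) and -0.39 points in CHH (adjusted p = 0.029). The right flank of the type I window reached 1.77% CHG in 1 step, above every step of the 3 windows.

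**Figure D5:**
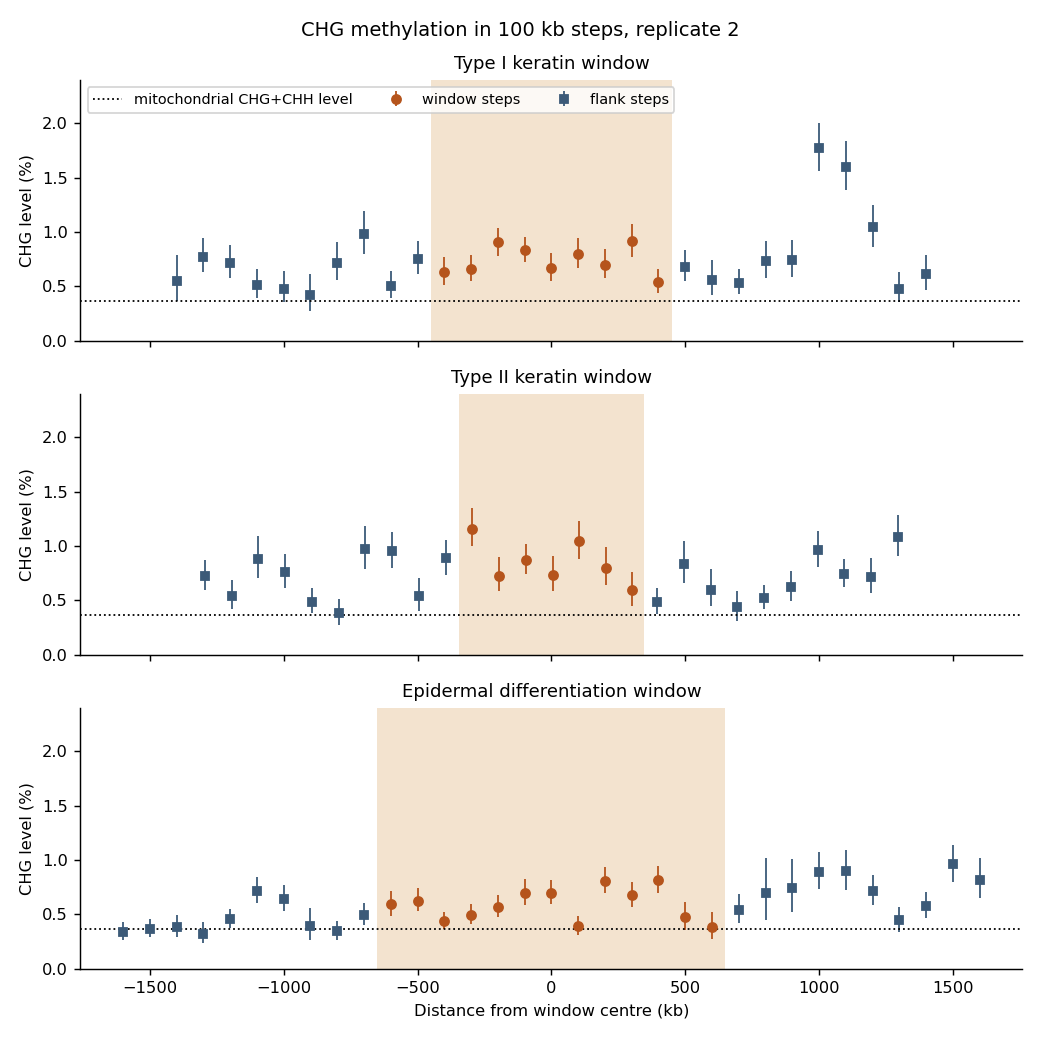
CHG level in percent (vertical) by distance from the window centre in kb (horizontal) in 100 kb steps of the 3 windows (orange circles, shaded) and their 1 Mb flanks (blue squares); bars are 95% exact binomial intervals and the dotted line is the mitochondrial CHG and CHH level of 0.368%. Window steps range from 0.38% to 1.16%, and 4 steps of the epidermal differentiation window reach down to the line with their intervals.

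Single steps ranged from 0.38% to 1.16% in CHG. In the type I window the 2 highest CHG steps were step 8 (99900001 to 100000000) at 0.92% and step 3 (99400001 to 99500000) at 0.90%, and the 2 lowest were step 9 (100000001 to 100100000) at 0.54% and step 1 (99200001 to 99300000) at 0.63%. None of the 9 steps was called by the quasi-binomial model in CHG, where 10.5% of steps of tiles were called higher and 7.17% lower, or in CHH, where 5.93% were called higher and 0.739% lower. At an unadjusted quasi-binomial p under 0.05, 1 step passed in CHG (step 9, p = 0.032) and 1 in CHH (step 6, p = 0.040). Within the type II window step 1 (101260001 to 101360000) at 1.16% and step 5 (101660001 to 101760000) at 1.04% were the 2 highest and were called higher in CHG (quasi-binomial adjusted p = 0.0024 and 0.040), against a background of 9.56% higher and 6.27% lower. The 2 lowest were step 7 (101860001 to 101950000) at 0.59% and step 2 (101360001 to 101460000) at 0.73%. In CHH, step 7, the lowest in CHG, was the highest at 1.66% (38 sites), step 5 was at 1.61% and step 1 at 1.22%, and no step was called, against a background of 5.61% higher and 0.569% lower. At an unadjusted quasi-binomial p under 0.05, 1 step passed (step 5, p = 0.0081).

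In the epidermal differentiation window the same 2 steps were called higher in both CpH contexts. Step 9 (93100001 to 93200000) was at 0.81% CHG and 1.09% CHH (quasi-binomial adjusted p = 0.017 and 0.00044), and step 11 (93300001 to 93400000) at 0.82% CHG and 0.998% CHH (quasi-binomial adjusted p = 0.018 and 0.016). Steps of tiles of that length were called higher at 11.2% for CHG and 6.55% for CHH, and lower at 8.13% and 0.941%, and the 2 of 13 steps called higher in CHG are near the background. The 2 lowest CHG steps were step 13 (93500001 to 93600000) at 0.38% and step 8 (93000001 to 93100000) at 0.39%. The 95% intervals of 4 CHG steps (steps 3, 8, 12 and 13) and of 5 CHH steps (steps 4, 5, 6, 12 and 13) reached down to the mitochondrial level. In the keratin windows 0 of 16 CHG steps and 1 of 16 CHH steps did so. The number of CHG steps called in the 3 windows, 4 of 29, was 2 against 500 kb flanks, 8 against the left flanks alone and 0 of 27 at 30 reads or more. Step 13 had the highest CpG level (87.2%) and the lowest CHG level of the window.

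CHG and CHH levels, read at different sites of the same library, went together over the steps only in part. Over all 29 steps Pearson's r was 0.56 and Spearman's rho 0.56, which include the differences between windows. Within the epidermal differentiation window r was 0.65 over 13 steps, and within the type I and type II windows it was 0.16 over 9 and 0.16 over 7. CHG and CpG levels had an r of -0.04 over the 29 steps. These are descriptions of steps that share a library, with no test.

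Single methylated CpH sites were called by a one-sided exact binomial test against the mitochondrial rate, with Benjamini-Hochberg adjustment at 0.01 over all nuclear sites of the context. In the type I window 91 of 6789 CHG sites (1.34%, 1.08% to 1.64%) and 56 of 2016 CHH sites (2.78%) were called, against 1.46% of CHG and 2.75% of CHH sites over the autosomes. For the type II window 67 of 3950 CHG sites (1.70%, 1.32% to 2.15%) and 23 of 726 CHH sites (3.17%, 2.02% to 4.72%) were called. In the epidermal differentiation window the shares were 1.02% for CHG (113 of 11046, 0.84% to 1.23%) and 1.77% for CHH (68 of 3832, 1.38% to 2.24%), with both intervals below the autosomal shares. Its flanks were lower still in point value, at 0.83% and 1.15%. Most CpH sites had no methylated read, 90.1%, 89.7% and 91.5% of CHG sites in the type I, type II and epidermal differentiation windows. The median level of called CHG sites was 17.4%, 17.4% and 15.4%, and no site was called with fewer than 3 methylated reads. At a background rate of 1% in place of the mitochondrial one, 38, 37 and 40 CHG sites and 21, 12 and 24 CHH sites were called in the 3 windows.

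The highest share of called CHG sites in a step was 2.44% (16 of 656) in step 1 of the type II window, followed by 2.37% (21 of 886) in step 3 of the type I window. For CHH it was 7.02% (8 of 114) in step 5 of the type II window, followed by 5.41% (16 of 296) in step 3 of the type I window. Step 13 of the epidermal differentiation window held 1 called site among 464 CHG sites (0.22%). The CpH site with the highest level in the 3 windows was a CHG cytosine at 99827568 of chromosome 11, methylated in 19 of 21 reads (90.5%), while the next highest CHG site of the type I window, at 99302598, was at 34.8%. By the lower bound of the interval the other leading sites of that window were CHH cytosines at 99568433 (36.7% of 30 reads) and 99414092 (30% of 40 reads). The leading type II sites were CHG cytosines at 101322097 (57.1% of 21 reads) and 101478040 (42.3% of 26 reads), followed by a CHG cytosine at 101461616 and a CHH cytosine at 101868688 that tied at 33.3% of 33 reads. In the epidermal differentiation window they were a CHG cytosine at 93165264 (47.8% of 23 reads) and CHH cytosines at 93396761 (40% of 30 reads) and 93097899 (36.4% of 33 reads). The second highest CHG site of the window, at 93165084 (33.3% of 30 reads), lay beside 93165264, and both lay in step 9, to the left of the other low CpG stretch of the window (93165895 to 93166374, 4 sites, 0 of 85 reads methylated).

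Listed CHG and CHH sites were denser in the windows than around them. A site is listed only with enough reads, so density reflects read depth as well as cytosine content, which were not told apart. CHG sites per 100 kb numbered 754 in the type I window, against 477 in its flanks, a ratio higher than that of 99.2% of tiles. For CHH there were 224 per 100 kb, against 69.9, a ratio higher than that of 99.4% of tiles. In the epidermal differentiation window there were 850 CHG sites per 100 kb, against 612, a ratio higher than that of 98.7% of tiles. The type II window had 572, against 536, a ratio higher than that of 71.9% of tiles. The density of the keratin windows themselves was not high. Of tiles of the same length, 39.9%, 11.3% and 72.6% had a lower CHG density than the type I, type II and epidermal differentiation windows. Mean depth at CHG sites was 23.2 to 24.1 reads in the windows and 23.0 to 24.2 in the flanks. The part of site density in the differences of level was not tested.

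Replicate 1 listed too few sites to repeat these comparisons. It had 5, 25 and 62 CHG and CHH sites in the type I, type II and epidermal differentiation windows, with 0 of 100, 3 of 568 and 6 of 1317 reads methylated. The last gives 0.46% (0.17% to 0.99%), which includes that library's mitochondrial level of 0.418%, so no methylation above it was detectable at this depth. The 0 of 100 reads in the type I window allow a level of up to 3.62%. Its 5 CpG sites in the keratin windows were at 100% (1 site, 20 reads) and 95.5% (4 sites, 85 of 89 reads), and it listed no CpG site in the epidermal differentiation window.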

How the data were processed

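Whole-genome bisulfite sequencing of dentate gyrus DNA from 2 libraries was used. Per the submitters' processing notes, reads were processed with Bismark 0.7.5 on mm9. The deposited tables hold, for each cytosine, the total reads and the counts of methylated and of unmethylated ones, from 1 strand class (OT), and the percent methylated, which the authors computed from those counts. How reads were trimmed or deduplicated is not given in the sources used here. Sites were listed from a minimum: the lowest total was 20 reads, or 30 for CHH in replicate 2. In every row the counts summed to the total and the percent matched them to within 1e-06.

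Levels were read-weighted, over sites of at most 100 reads. Positions were counted from 1, and windows run from the base after their lower limit. Each window, and each 100 kb step with at least 20 sites, was set against the 1 Mb flanks on each side with a quasi-binomial logistic model over sites (Pearson dispersion, two-sided) and Benjamini-Hochberg adjustment at 0.05 over autosomal tiles of the same length, or their steps, each against its own flanks. The test was checked on simulated data in which sites were drawn independently of each other. That check does not cover neighbouring sites that share cells and reads. Fisher's exact tests were two-sided. Named steps were the 2 highest and 2 lowest by CHG in each window, named CpH sites the 3 called sites with the highest lower bound, and named CpG stretches all of those in the windows. The second highest CHG sites and the extreme shares of called sites were named after their values were seen. Windows, flanks and lists were chosen with earlier results of these data known. RefSeq tables of GRCm38.p6 gave gene names and promoter sequences only. Python 3.11.15, NumPy 2.4.6, SciPy 1.17.1 and pandas 2.3.3 were used.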

Additional observations from a re-analysis of the deposited data

How the results depend on the processing

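No paired analysis was possible because the series has 1 group. Of 166 tested values of the windows against their flanks under other settings, 135 kept direction and side of the threshold. With the mean of site levels, which has no test, all 9 kept direction. The higher CpG of both keratin windows kept both under all tested settings but 30 reads for both and, for type I, the sites above 20%, a filter that shrinks the gap by construction; the type I difference was 8.07 to 9.43 points and the type II difference 10.4 to 11.6 points with any 1 step left out.

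Only sites of at least 30 reads: CpG differed from the flanks by 10.9 (type I, adjusted p = 0.13 by the quasi-binomial model), 12.4 (type II, 0.20) and 3.73 points (epidermal differentiation, sign turned), and type II CHG by 0.48 points (0.34). CHG steps called numbered 0 of 27, and called CHG sites 7, 9 and 19 in the type I, type II and epidermal differentiation windows. Type I minus type II was -3.50 points (CpG) and -0.54 points (CHG, now passing), type I minus epidermal differentiation -4.08 (CpG) and 0.0068 points (CHG, lost), and type II minus epidermal differentiation -0.58 points (CpG). Class shares differed from the flanks by 12.6 (type I, high), -9.30 and 22.3 (type II, low and high), and -2.29 and 7.12 points (epidermal differentiation, low and high): none passed, and both of the last turned sign. Fewer sites entered. At 40 reads CHH differed by -0.22 (type II) and -0.54 points (epidermal differentiation), and 0 of 6 CHH steps were called.

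Other flanks: with 500 kb, steps called were 7 (CpG) and 2 (CHG), type I CHG differed by 0.084, epidermal differentiation CHG by -0.015 and CHH by -0.018, and type II CHH by 0.47 points (passing). With 2 Mb, cut short by the chromosome end for type II, epidermal differentiation CpG differed by 0.39 and CHH by 0.12 (passing), and type I CHG by 0.017 points. Against the left flank alone, type I CHG differed by 0.094 and CHH by 0.013, epidermal differentiation CpG by 0.97 and CHG by 0.14 points (passing), and 9 CpG and 8 CHG steps were called. Against the right flank alone, epidermal differentiation CpG differed by -3.52 and CHG by -0.12, and type I CHG by -0.15 and CHH by -0.39 points (all passing), and 1 CHH step was called.

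In 50 kb steps 15 of 58 (CpG) and 4 of 58 (CHG) were called. Fisher's exact test on summed reads, which calls 61.3% to 83.4% of tiles, passed for type I CHH (-0.19 points), type II CHH (0.30), epidermal differentiation CpG (-1.02) and CHH (0.087), and for type I minus type II in CpG (1.19), CHG (-0.12) and CHH (-0.25) and type I minus epidermal differentiation in CpG (1.30). Type II CHG was 0.11 points without step 1 (lost), type II CHH 0.36 without step 4 (passing), and epidermal differentiation CpG 1.06 without step 10. By alternatives chosen after seeing the data, type I CpG was 1.499 (not passing) and epidermal differentiation CpG 1.17 with sites above 20% only, and 1.14 points without the long stretch. At a background rate of 1%, called sites were 38, 37 and 40 (CHG) and 21, 12 and 24 (CHH) in the type I, type II and epidermal differentiation windows. With classes at 10% and 90%, the epidermal differentiation high share differed by 0.090 points. The causes were not tested. Replicate 1 allowed 1 comparison, epidermal differentiation CHH, at 0.28 points (quasi-binomial unadjusted p = 0.40).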
